A study of Mus musculus with 16 samples.

Results

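The genes described here encode the factors that start, lengthen and end polypeptide chains on cytosolic ribosomes. They are the genes of the deposited count table whose symbols begin with Eif1 to Eif6, Eef1 or Eef2, or are Etf1 or Gspt1, leaving out pseudogenes with the suffix -ps and the Eif2ak kinases, with a summed count of at least 160 over all libraries. Of 77 symbols that matched, 10 were such pseudogenes and 3 were under the count minimum, which left 64 genes of the 55487 in the table. All 64 passed the filter on low counts and were among the 18275 genes tested. The lowest 2 members were Eif4ebp3, with 241 reads in all, and Eef1akmt4, with 2990, and the nearest gene left out was Eef1akmt3, with 131.

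Polyadenylated RNA from the apex of the heart was sequenced in 16 mice, 4 in each of 4 groups. Ctrl animals were labelled wild type, and KO animals carried a CRISPR/Cas9 deletion of the long noncoding RNA Cardinal (Gm12295 in the annotation), for which the sources used here name no Cre or tissue-specific promoter. Each genotype was examined 4 weeks after transverse aortic constriction (TAC), in which a ligature tied over a 26-gauge needle narrows the aorta and makes the heart pump against a higher pressure, or after a sham operation with no ligation. Only male mice were used, and strain and age are not given in the sources used here. The question asked of these genes was whether their RNA differed after TAC in either genotype and between genotypes.

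In the cytosol, eIF2 brings the initiator tRNA to the small ribosomal subunit, eIF1, eIF1A and eIF3 help the subunit bind and scan the messenger RNA, and eIF4E, eIF4G and eIF4A bind its cap and unwind it. The eIF4E-binding proteins block eIF4E until the kinase mTORC1 phosphorylates them. During elongation eEF1A carries aminoacyl-tRNA to the ribosome, eEF1B reloads it with GTP and eEF2 moves the ribosome along. Mammals have a pair of eEF1A genes. Eef1a1 is used in most cells, while Eef1a2 is largely a gene of striated muscle and neurons, and growth of a loaded heart is known to involve faster protein synthesis.

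The genes on which the results turn are Eef1a1 (chr9:78478449-78489151, minus strand), Eef1a2 (chr2:181147653-181157014, minus strand), Eif4a1 (chr11:69666936-69672423, minus strand) and Eif4a2 (chr16:23107444-23114136, plus strand), all in GRCm38. Each pair encodes closely related proteins with the same biochemical role, and the members of each pair moved in opposite directions in KO hearts. Their promoters are shown so that the letters can be compared between the members of each pair. They are the 250 bases before the RefSeq start in GRCm38.p6, taken from chr9:78481725-78481974, chr2:181157016-181157265, chr11:69672424-69672673 and chr16:23107218-23107467, and read along the gene. Capitals mark matches to the motifs listed after them.
Eef1a1: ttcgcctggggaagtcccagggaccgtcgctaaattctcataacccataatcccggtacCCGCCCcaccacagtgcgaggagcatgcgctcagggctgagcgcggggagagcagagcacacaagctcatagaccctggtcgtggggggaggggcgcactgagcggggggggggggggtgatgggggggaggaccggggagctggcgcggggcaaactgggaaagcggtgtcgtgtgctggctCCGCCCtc
Eef1a2: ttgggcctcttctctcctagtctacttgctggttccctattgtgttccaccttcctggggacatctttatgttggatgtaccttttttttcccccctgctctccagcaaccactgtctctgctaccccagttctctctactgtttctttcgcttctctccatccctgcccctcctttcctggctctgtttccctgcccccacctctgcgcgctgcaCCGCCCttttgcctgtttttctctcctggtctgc
Eif4a1: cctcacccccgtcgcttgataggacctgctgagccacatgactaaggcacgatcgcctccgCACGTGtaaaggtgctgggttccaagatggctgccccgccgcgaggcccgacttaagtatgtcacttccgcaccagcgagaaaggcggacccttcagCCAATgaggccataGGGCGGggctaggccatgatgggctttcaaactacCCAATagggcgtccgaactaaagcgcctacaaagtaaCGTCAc
Eif4a2: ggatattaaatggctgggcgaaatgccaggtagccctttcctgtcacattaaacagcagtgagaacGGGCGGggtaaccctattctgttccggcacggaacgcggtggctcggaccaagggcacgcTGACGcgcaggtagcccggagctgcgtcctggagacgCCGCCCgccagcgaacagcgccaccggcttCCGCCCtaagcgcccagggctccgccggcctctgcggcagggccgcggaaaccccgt

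Of the 64 genes, 49 had an entry among the RefSeq promoters used, with 63 promoters in all, compared with 32841 promoters of the same length over all genes. The motifs were searched on both strands. The GC box GGGCGG was in all 4 promoters shown, in 69.8% of the members' promoters and in 32.7% of all promoters. The letters TGACG, the core of a cAMP response element, were in both Eif4a promoters and in neither Eef1a promoter, in 46.0% of the members' promoters and in 17.8% of all. CACGTG, an E-box, was in the Eif4a1 promoter alone of these 4, in 22.2% of the members' promoters and in 6.02% of all, and CCAAT was found at 2 places in the Eif4a1 promoter alone, in 22.2% and 33.9%. Members' promoters held more G and C, with a median of 61.6% against 52.4% over all promoters, and GC-rich motifs are then found more often. TATAAA (7.94% of members' promoters and 12.4% of all), the M-CAT motif CATTCC (6.35% and 12.6%), the amino acid response element core TGATGNAA (3.17% and 3.45%) and the MEF2 (1.59% and 2.92%) and CArG (1.59% and 1.47%) motifs matched none of these 4 promoters. In these 4 promoters no 2 matches overlapped. A match describes letters in the window and does not show that a factor binds there.

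Each library held between 53169437 and 79404714 counted reads, and the members took 0.793% to 0.952% of them. In KO libraries Cardinal was at 0.276 to 0.553 CPM (reads per 1e6 reads, with library sizes scaled by edgeR's TMM factors) except in KO TAC 4, where it was at 4.55, as high as in Ctrl libraries (2.69 to 8.02). The library labelled KO TAC 4 therefore goes against its label, and the calls that are lost without it are named with the counts of calls after TAC. The share of reads from mitochondrially encoded genes was 24.2%, 21.9%, 27.0% and 23.7% in Ctrl TAC 1 to 4, and that of Ctrl TAC 2 was the lowest of all 16 libraries. Ctrl TAC 2, 3 and 4 and KO TAC 4 carry animal numbers of 1 series in their titles and the other 12 libraries carry numbers of another, so that genotype and number series are partly confounded among the TAC hearts. No sham heart is of the smaller series. Surgery and number series are therefore partly confounded as well, more so in Ctrl than in KO hearts, which also touches comparisons of the 2 responses to TAC. All 12 cardiomyocyte markers were detected, with a summed level of 80770 to 92181 CPM in Ctrl sham hearts and 69893 to 76033 CPM in Ctrl TAC and 61149 to 63498 CPM in KO TAC hearts. The 8 fibroblast markers summed to 607 to 723 CPM in Ctrl sham, 634 to 675 in KO sham, 1039 to 1393 in Ctrl TAC and 1452 to 1650 in KO TAC hearts. In RNA from whole tissue, fewer cells of a type and less RNA per cell cannot be told apart.

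The eEF1A genes were the most abundant of the set together with eEF2. Levels are compared between genes as CPM per kilobase of exon. In Ctrl sham hearts Eef1a2 stood first with 588 ± 9.98 CPM per kilobase (SD, n = 4), followed by Eef2 with 367 ± 3.01, Eef1a1 with 236 ± 11.1 and Eif1 with 174 ± 13.2. These 4 levels differed by far more than their spread. The rest ranged from 95.9 CPM per kilobase for Eif5a down to 0.353 for Eif4ebp3, whose libraries held too few reads for a change to be seen (0.0696 to 0.391 CPM in Ctrl sham).

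After TAC, 19 of the 64 genes passed an adjusted p of 0.05 in Ctrl hearts (edgeR quasi-likelihood test, Benjamini-Hochberg over all genes tested, used for every adjusted p here), 12 higher and 7 lower. Over all genes tested 20.0% passed, 10.4% higher and 9.60% lower, against 29.7% of the members, and an unadjusted p was under 0.05 for 24 members (37.5%) and for 32.1% of all genes. In KO hearts 21 passed, 12 higher and 9 lower, which is 32.8% of the members beside 34.3% of all genes (17.8% higher and 16.5% lower), and an unadjusted p was under 0.05 for 31 members (48.4%) and for 43.1% of all genes. The changes were small. In both genotypes the median of the members was near 0, at 0.02 and 0.03 on the log2 scale, beside medians of 0.00 over all genes, and Eef1akmt4 was the only one of the 64 to differ by 0.5 or more in any comparison of 2 groups (0.50 in Ctrl TAC against Ctrl sham, adjusted p = 0.0534). Ctrl and KO hearts shared 13 of these genes, which is 68.4% of the Ctrl calls and 61.9% of the KO calls, and 12 of the 13 moved in the same direction. Another 37 passed in neither genotype. No share over all genes stands beside these overlaps or beside the counts with fewer libraries that follow, so they are not read as a trait of the members. Without KO TAC 4 the counts were 18 in Ctrl and 15 in KO hearts, where all 21 kept their sign and the calls of Eef1akmt1, Eef1g, Eif2s2, Eif2s3y, Eif4e3 and Etf1 were lost (adjusted p 0.0528 to 0.0778), and with only the 12 libraries of the larger number series they were 5 and 15.

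**Figure D1:**
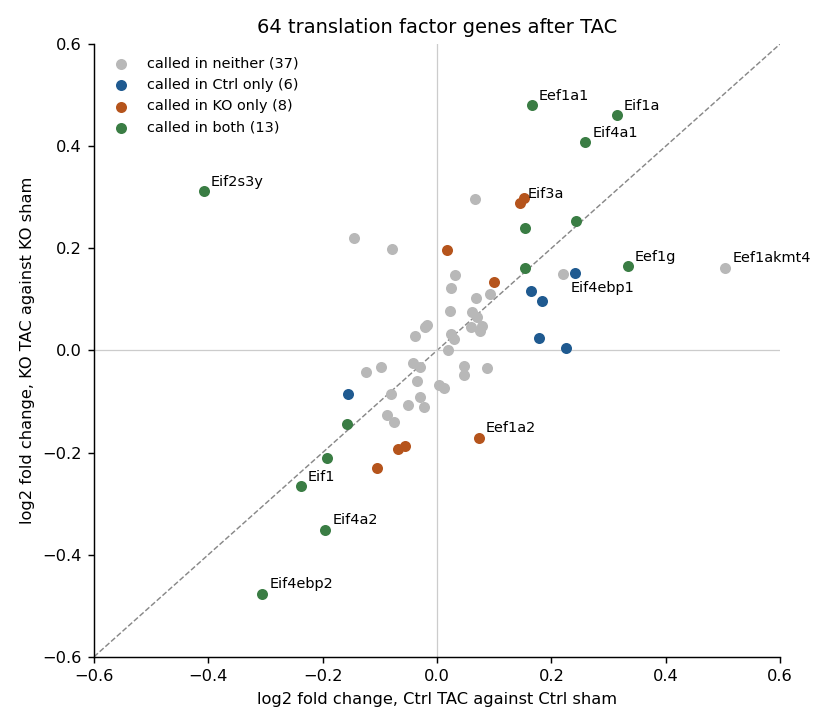
Each point is 1 of the 64 genes, with the log2 fold change of Ctrl TAC against Ctrl sham on the horizontal axis and of KO TAC against KO sham on the vertical axis (4 hearts a group), coloured by the genotype in which it passed an adjusted p of 0.05. Of the 13 genes that passed in both, Eif2s3y at upper left alone has opposite signs, and Eef1a1 lies above and Eef1a2 below the dashed line of equal change.

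Among the elongation factors, the eEF1A pair carried the clearest difference. Eef1a1 was at 562, 570, 622 and 599 CPM in the 4 Ctrl sham hearts and at 576, 584, 572 and 581 CPM in the KO sham hearts. It was at 649, 602, 670 and 717 CPM in the Ctrl TAC hearts and at 784, 856, 788 and 798 CPM in the KO TAC hearts. Every KO TAC heart lay above every other heart, whereas Ctrl TAC and Ctrl sham overlapped through the library Ctrl TAC 2. Eef1a1 rose by 0.17 ± 0.05 on the log2 scale (SE, 12.2%) in Ctrl hearts (adjusted p = 0.0344) and by 0.48 ± 0.05 (39.5%) in KO hearts (adjusted p = 1.86e-06). The rise in Ctrl hearts kept its side of the threshold in 15 of 24 alternative fits and lost it in 9, and the rise in KO hearts passed in all 24.

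Eef1a2 was at 1229, 1227, 1196 and 1246 CPM in the Ctrl sham hearts and at 1229, 1216, 1232 and 1280 CPM in the KO sham hearts. It was at 1297, 1401, 1232 and 1221 CPM in the Ctrl TAC hearts and at 1128, 1110, 1105 and 1059 CPM in the KO TAC hearts. The KO TAC hearts were the lowest 4 of all 16, and Ctrl TAC overlapped Ctrl sham. Eef1a2 fell by 0.17 ± 0.05 on the log2 scale in KO hearts (adjusted p = 0.00904), a change that passed in all 24 alternative fits. In Ctrl hearts its log2 difference was 0.07 ± 0.05 (adjusted p = 0.316).

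Because these 2 genes encode proteins with the same function, their balance was computed within each library as the ratio of their levels per kilobase. Eef1a1 made up 28.6% ± 1.18 (SD, n = 4) of the summed eEF1A level in Ctrl sham, 28.1% ± 0.467 in KO sham, 30.0% ± 2.78 in Ctrl TAC and 38.0% ± 1.13 in KO TAC hearts. The 4 KO TAC hearts ran from 36.7% to 39.2%, above the 26.4% to 32.9% of the Ctrl TAC hearts. The summed level of both genes was 823 ± 10.5 CPM per kilobase in Ctrl sham, 826 ± 13.9 in KO sham, 883 ± 22.7 in Ctrl TAC and 852 ± 19.8 in KO TAC.

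The log2 ratio of Eef1a1 to Eef1a2 was 0.65 higher in KO TAC than in KO sham hearts (exact two-sided permutation test over 70 relabellings, p = 0.0286, the smallest possible, and 0.0476 adjusted over 5 comparisons). It was 0.52 higher in KO TAC than in Ctrl TAC hearts, with the same exact p. For Ctrl TAC against Ctrl sham the difference was 0.09 (exact permutation p = 0.4), and it was 0.18 without Ctrl TAC 2 (exact permutation p = 0.0857) and 0.03 without Ctrl TAC 4 (exact permutation p = 0.771). For KO sham against Ctrl sham it was -0.04 (exact permutation p = 0.514). The change with TAC was larger in KO than in Ctrl hearts by 0.56. Relabelling genotype within the TAC and within the sham hearts gave an exact permutation p of 0.00735 over 4900 relabellings (0.0367 adjusted). This p is exact for no genotype difference in TAC or in sham hearts. It does not by itself test for equal changes with TAC. Without KO TAC 4 the differences were 0.64 in KO hearts, 0.50 between the TAC groups and 0.54 for the difference of the changes. No stretch of 75 bases was common to the annotated transcripts of these 2 genes, and shorter or mismatched stretches were not examined. Of the 75-base stretches of Eef1a1, 26.6% also occur in 14 other annotated genes.

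**Figure D2:**
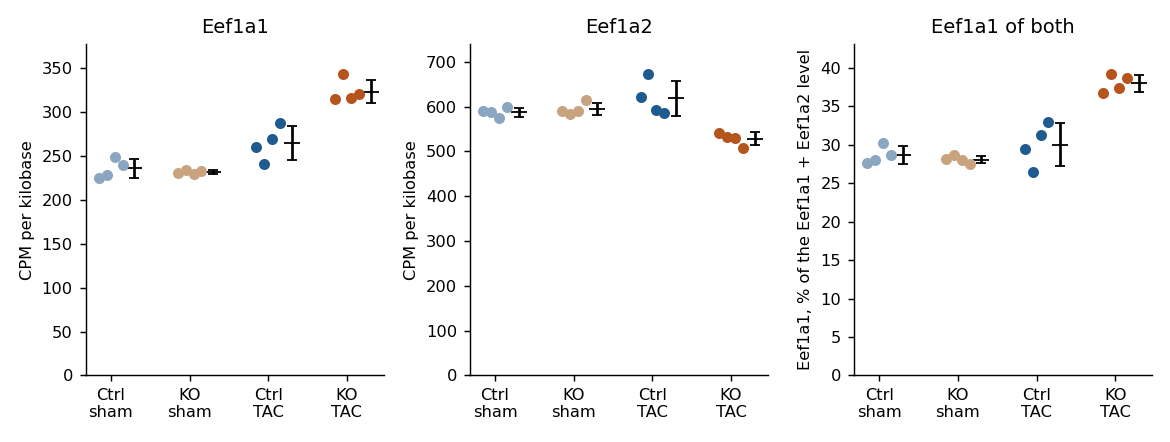
Levels of Eef1a1 and Eef1a2 in CPM per kilobase (left and middle) and the share of Eef1a1 in their sum in percent (right), with 1 point per heart and the mean ± SD beside each group of 4. The KO TAC hearts are highest for Eef1a1, lowest for Eef1a2 and highest in share, at 36.7% to 39.2%.

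Markers of cell types also changed after TAC, and did so in both genotypes. Of 12 cardiomyocyte markers, 6 were lower in Ctrl and 9 in KO hearts after TAC, and 4 were lower in KO TAC than in Ctrl TAC hearts. Of 8 fibroblast markers, 4 and 7 were higher after TAC and 1 was higher in KO TAC than in Ctrl TAC. The 8 macrophage markers summed to 129 to 172 CPM in sham and 188 to 261 CPM in TAC hearts, with 5 higher in Ctrl and 8 in KO hearts after TAC and none called between the TAC groups. The 7 endothelial markers summed to 698 to 868 CPM in Ctrl TAC and 697 to 770 CPM in KO TAC hearts and none was called. After TAC in KO hearts, 2 of 3 lymphocyte, 2 of 6 smooth muscle and pericyte and 2 of 4 Schwann cell markers were called, the last of these lower, and in Ctrl hearts 1 smooth muscle and 1 atrial marker were higher. The smooth muscle and pericyte share in KO hearts was 33.3%, beside 34.3% of all genes called in either direction. Mesothelial, erythroid and skeletal muscle markers were called in no comparison, and the 3 adipocyte markers were under the count filter. The part of these shifts in the Eef1a1 to Eef1a2 balance was not tested.

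The other elongation factor genes moved less uniformly. The exchange factor subunit Eef1g was at 183, 182, 179 and 190 CPM in Ctrl sham and at 225, 246, 220 and 234 CPM in Ctrl TAC hearts, with no overlap, and rose by 0.33 ± 0.05 on the log2 scale (adjusted p = 1.54e-04). In KO hearts it went from 205, 194, 211 and 186 CPM to 211, 229, 218 and 234 CPM, which touch, and rose by 0.16 ± 0.05 (adjusted p = 0.0184). Of the other subunits, Eef1d was called in KO hearts (log2 change -0.19 ± 0.05, adjusted p = 0.00616) and was at -0.07 in Ctrl hearts (difference of the changes -0.12 ± 0.07, adjusted p = 0.544), and Eef1b2 was at 0.07 and 0.06 (adjusted p = 0.541 and 0.516). Eef1e1, whose product is better known as a scaffold protein of the aminoacyl-tRNA synthetase complex, rose by 0.30 ± 0.08 in KO hearts (adjusted p = 0.00843). Of the 75-base stretches of Eef1g, 38.0% were also found in other annotated genes, so that its counts are uncertain to that extent.

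Eef2, the translocase, was not called in either genotype, with log2 differences of -0.09 ± 0.06 and -0.13 ± 0.06 (adjusted p = 0.3 and 0.0887). Its inhibitory kinase Eef2k ranged from 24.4 to 45.8 CPM over all hearts with overlap between all groups. The gene of the eEF2 methyltransferase, Eef2kmt, rose in KO hearts by 0.20 ± 0.07 (adjusted p = 0.044), a call lost in 12 of 24 alternative fits. Of the 3 lysine methyltransferases of eEF1A, Eef1akmt1 fell in KO hearts by 0.23 ± 0.08 on the log2 scale (adjusted p = 0.0278), and Eef1akmt2 and Eef1akmt4 passed in neither genotype.

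In the cap-binding group, the 2 genes of the RNA helicase eIF4A also moved in opposite directions, here in both genotypes. Eif4a1 was at 130, 132, 135 and 137 CPM in Ctrl sham and at 163, 147, 154 and 174 CPM in Ctrl TAC hearts, and at 142, 136, 141 and 128 CPM in KO sham and 178, 188, 183 and 178 CPM in KO TAC hearts. No TAC heart overlapped the sham hearts of its genotype. Eif4a1 rose by 0.26 ± 0.05 on the log2 scale in Ctrl hearts (adjusted p = 0.00164) and by 0.41 ± 0.05 in KO hearts (adjusted p = 8.64e-06), and passed in all 24 alternative fits in both. Eif4a2 was at 360, 337, 339 and 375 CPM in Ctrl sham and at 308, 288, 328 and 309 CPM in Ctrl TAC hearts, and at 370, 367, 369 and 368 CPM in KO sham and 311, 307, 254 and 283 CPM in KO TAC hearts. It fell by 0.20 ± 0.06 (adjusted p = 0.0279) and by 0.35 ± 0.06 (adjusted p = 1.81e-04), the first call being lost in 9 of 24 alternative fits. The share of Eif4a1 in the summed level per kilobase was 31.8% ± 1.07 in Ctrl sham, 31.4% ± 0.957 in KO sham, 38.9% ± 1.79 in Ctrl TAC and 43.7% ± 2.39 in KO TAC hearts (SD, n = 4), while the sum stayed between 94.5 and 101 CPM per kilobase in the group means. These transcripts share no stretch of 75 bases, but 25.4% of those of Eif4a1 also lie in other annotated genes, of which the pseudogene Eif4a-ps4 was called higher as well (log2 change 0.35 ± 0.09 in Ctrl and 0.41 ± 0.09 in KO hearts).

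Of the other cap-binding genes, the scaffold Eif4g1 rose in Ctrl hearts (0.18 ± 0.05, adjusted p = 0.0221), as did Eif4e2, whose product binds caps without supporting initiation (0.18 ± 0.05, adjusted p = 0.0098). In KO hearts their differences were 0.03 and 0.10, neither called. Eif4e3, a further cap-binding paralog, fell by 0.16 ± 0.05 in Ctrl (adjusted p = 0.0435) and by 0.14 ± 0.05 in KO hearts (adjusted p = 0.0439), calls lost in 15 and in 10 of 24 alternative fits. Eif4e itself, Eif4b, Eif4h, Eif4g2 and Eif4g3 were called in neither genotype. Eif4a3, a helicase of the exon junction complex, rose by 0.15 ± 0.05 (adjusted p = 0.029) and by 0.24 ± 0.05 (adjusted p = 7.59e-04).

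The inhibitors of eIF4E gave the largest fall among the 64 genes in KO hearts. Eif4ebp2 was at 84.3, 88.5, 85.5 and 97.7 CPM in Ctrl sham and at 69.97, 79.9, 69.9 and 68.2 CPM in Ctrl TAC hearts, and at 87.3, 91.0, 88.1 and 86.5 CPM in KO sham and 62.8, 58.6, 65.1 and 67.0 CPM in KO TAC hearts. In both genotypes the TAC hearts lay below the sham hearts, and the KO TAC hearts lay below all others. Eif4ebp2 fell by 0.31 ± 0.06 on the log2 scale (adjusted p = 0.00125) and by 0.48 ± 0.06 (adjusted p = 6.93e-06), in all 24 alternative fits of each.

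Eif4ebp1, the form most often studied as a target of mTORC1, was at 56.4, 56.8, 51.0 and 56.7 CPM in Ctrl sham, at 58.5, 50.5, 44.5 and 62.3 CPM in KO sham, at 61.6, 70.4, 63.7 and 61.6 CPM in Ctrl TAC and at 60.5, 65.8, 57.3 and 55.8 CPM in KO TAC hearts. The Ctrl TAC hearts lay above the Ctrl sham hearts, whereas the KO groups overlapped widely. Its log2 difference was 0.22 ± 0.08 in Ctrl (adjusted p = 0.0779) and 0.15 ± 0.09 in KO hearts (adjusted p = 0.194), so it passed in neither. As a share of Eif4ebp1 and Eif4ebp2 together, Eif4ebp1 was 62.0% ± 1.55 in Ctrl sham, 61.5% ± 3.87 in KO sham, 70.2% ± 0.354 in Ctrl TAC and 71.3% ± 2.64 in KO TAC hearts (SD, n = 4). Without KO TAC 4 the KO TAC shares were 43.7% for Eif4a1, 72.1% for Eif4ebp1, 37.8% for Eef1a1 and, for Eif1a in its pair with Eif1ax, 32.2%. Eif4enif1, which carries eIF4E to the nucleus, and Eif4ebp3 were not called.

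**Figure D3:**
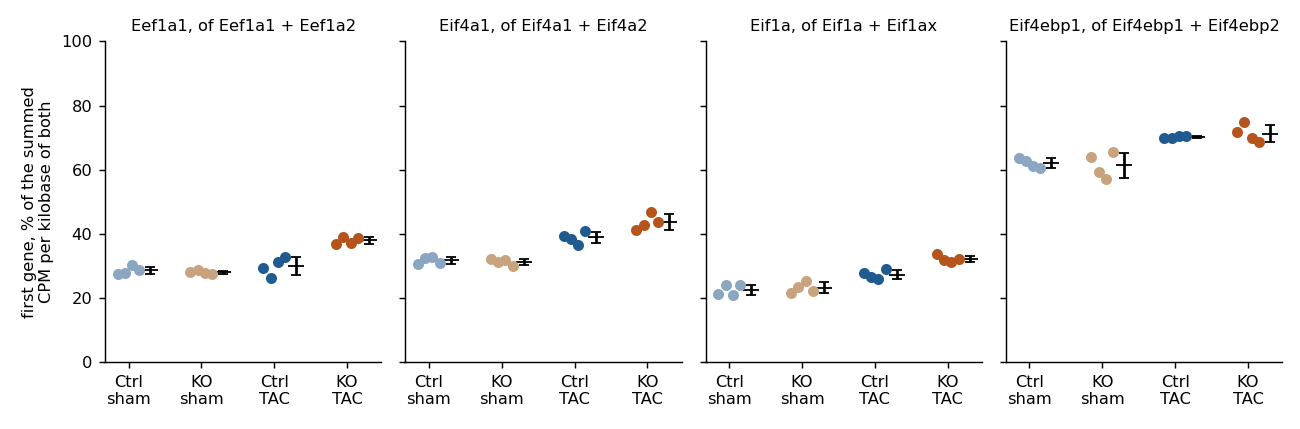
Share of the first gene in the summed CPM per kilobase of a pair of paralogs, in percent, with 1 point per heart and the mean ± SD beside each group of 4. The mean share of the first gene is higher in TAC than in sham hearts of both genotypes for every pair shown, where the order within a pair sets the direction. In the pair Eif2s3y and Eif2s3x, computed but not shown, the mean share of Eif2s3y is 45.9% in Ctrl sham and 38.5% in Ctrl TAC. In KO sham and KO TAC hearts that share is 40.4% and 45.5%. For Eef1a1 the mean share is 28.6% and 30.0% in Ctrl sham and Ctrl TAC, which overlap, and 28.1% and 38.0% in KO sham and KO TAC. Mean shares of Eif4a1 (38.9% and 43.7%) and Eif1a (27.4% and 32.2%) are also higher in KO TAC than in Ctrl TAC hearts. Only the Eef1a1 to Eef1a2 balance was tested.

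Among the genes of start codon selection, Eif1a, on an autosome, was at 13.6, 14.4, 12.9 and 14.4 CPM in Ctrl sham and at 16.9, 16, 17.3 and 18.6 CPM in Ctrl TAC hearts, and at 13.6, 14.0, 16.3 and 14.2 CPM in KO sham and 20.3, 19.4, 19.4 and 20.7 CPM in KO TAC hearts. The TAC hearts lay above the sham hearts in both genotypes, and Eif1a rose by 0.31 ± 0.07 (adjusted p = 0.00234) and by 0.46 ± 0.07 (adjusted p = 2.91e-05). Its X-linked paralog Eif1ax fell by 0.19 ± 0.05 on the log2 scale in KO hearts (adjusted p = 0.00851) and was at -0.06 in Ctrl hearts. Eif1a was 22.6% ± 1.65 of the pair in Ctrl sham, 23.2% ± 1.76 in KO sham, 27.4% ± 1.33 in Ctrl TAC and 32.2% ± 1.05 in KO TAC hearts (SD, n = 4). Eif1, which guards the choice of start codon, fell by 0.24 ± 0.06 (adjusted p = 0.0112) and by 0.27 ± 0.06 (adjusted p = 0.00287), and its paralog Eif1b was called in neither genotype.

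The genes of eIF2 and its exchange factor eIF2B, the step at which stress kinases act, were mostly not called. So were genes at large, since 20.0% of all genes were called in Ctrl and 34.3% in KO hearts. Of 6 genes for initiator tRNA delivery, Eif2a fell in Ctrl hearts (0.16 ± 0.05 on the log2 scale, adjusted p = 0.0392), Eif2s2 rose in KO hearts (0.13 ± 0.05, adjusted p = 0.0343), calls lost in 10 and in 8 of 24 alternative fits, and the Y-linked Eif2s3y was called in both with opposite signs. Eif2s3y was at 62.6, 49.2, 53 and 58.0 CPM in Ctrl sham and at 47.7, 36.7, 45.2 and 38.4 CPM in Ctrl TAC hearts, but at 34.7, 40.2, 50.1 and 50.6 CPM in KO sham and 53.2, 59.3, 51.0 and 54.3 CPM in KO TAC hearts. It fell by 0.41 ± 0.12 in Ctrl (adjusted p = 0.019) and rose by 0.31 ± 0.11 in KO hearts (adjusted p = 0.0463), a call lost in 13 of 24 alternative fits. The X-linked copy Eif2s3x stayed between 57.0 and 63.0 CPM in every heart. Of 5 eIF2B genes, Eif2b4 rose in Ctrl hearts (0.22 ± 0.05, adjusted p = 0.00515) and was at 0.01 ± 0.05 in KO hearts, and no other eIF2B gene was called.

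Of the 14 genes of eIF3, the large scaffold of the initiation complex, 12 were not called in Ctrl and 11 not in KO hearts. Over all genes tested, 20.0% were called in Ctrl and 34.3% in KO hearts, so these counts are not read as a trait. Eif3h was at 113 to 119 CPM in Ctrl sham and 132 to 143 CPM in Ctrl TAC hearts, and at 115 to 121 CPM in KO sham and 134 to 149 CPM in KO TAC hearts, and rose by 0.24 ± 0.04 (adjusted p = 6.25e-04) and by 0.25 ± 0.04 (adjusted p = 1.93e-04). Eif3m was lower in both, with no overlap of TAC and sham hearts, and fell by 0.19 ± 0.05 (adjusted p = 0.00724) and by 0.21 ± 0.05 (adjusted p = 0.00188). The largest subunit, Eif3a, rose in KO hearts by 0.29 ± 0.06 (adjusted p = 0.00112) and was at 0.15 ± 0.06 in Ctrl hearts (adjusted p = 0.102). In the annotation 87.4% of the 75-base stretches of Eif3j2 also lie in its near-copy Eif3j1 or a neighbour, so their separate counts are uncertain.

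Late initiation and termination genes moved upward where they were called. Eif6, which keeps the large ribosomal subunit from joining too early, rose in Ctrl hearts by 0.24 ± 0.06 (adjusted p = 0.0087) and was at 0.15 ± 0.06 in KO hearts (adjusted p = 0.063), while Eif5 and Eif5b were not called. The release factor gene Etf1 rose by 0.15 ± 0.05 in Ctrl (adjusted p = 0.0394) and by 0.16 ± 0.05 in KO hearts (adjusted p = 0.0191), and its partner Gspt1 rose by 0.16 ± 0.05 in Ctrl hearts (adjusted p = 0.0266) and was at 0.12 ± 0.05 in KO hearts (adjusted p = 0.0808). In Ctrl hearts these calls were lost in 11 and in 9 of 24 alternative fits, and the call of Etf1 in KO hearts in 4.

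Without TAC, no member was called between the genotypes. Between KO sham and Ctrl sham hearts 0 of 64 genes passed by edgeR, and 0 by DESeq2, beside 0% of all genes tested by edgeR, and 2 members had an unadjusted p under 0.05 (3.12% of members, beside 2.62% of all genes). Cardinal itself, at 3.24 to 3.86 CPM in Ctrl sham and 0.297 to 0.553 CPM in KO sham hearts, was not called either. A lack of calls here therefore does not show that the genotypes were alike. The log2 differences of the members ran from -0.34 for Eif2s3y to 0.29 for Eef1akmt4. Eef1a1 was at -0.02 ± 0.05, Eef1a2 at 0.02 ± 0.05 and Eif4ebp1 at -0.03 ± 0.09.

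After TAC, 2 of the 64 genes separated KO from Ctrl hearts, and they were the eEF1A pair, which is 3.12% of the members beside 2.68% of all genes tested. Eef1a1 was 0.29 ± 0.05 higher on the log2 scale (22.3%, adjusted p = 0.0131, beside 1.36% of all genes called higher) and Eef1a2 was 0.23 ± 0.05 lower (log2 difference -0.23, adjusted p = 0.0196, beside 1.32% called lower), and the 2 groups of hearts overlapped for neither gene. The lack of overlap adds no support, since both genes were picked from the same values. Without KO TAC 4 both remained called, at 0.30 (adjusted p = 0.0192) and -0.21 (adjusted p = 0.043). Without Ctrl TAC 2 they were at 0.25 (adjusted p = 0.0473) and -0.18 (adjusted p = 0.0722), and without both libraries at 0.25 (adjusted p = 0.0541) and -0.17 (adjusted p = 0.117). With a term for the number series in the fit they were at 0.29 (adjusted p = 0.0862) and -0.25 (adjusted p = 0.0937), so the sizes were as large and neither was called.

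The genes nearest to the threshold between the TAC groups were Eif4a1 (log2 difference 0.19 ± 0.05, adjusted p = 0.0586), Eif1a (0.21 ± 0.07, adjusted p = 0.0814), Eif2s3y (0.37 ± 0.11, adjusted p = 0.089) and Eif4ebp2 (-0.18 ± 0.06, adjusted p = 0.1). For each of these 4 the KO TAC and Ctrl TAC hearts did not overlap. This adds no support, since the 4 were picked for a low p from the same values. The share of all genes without overlap was not computed. Without KO TAC 4 they were at 0.20, 0.20, 0.38 and -0.21 (adjusted p 0.0844 to 0.157). DESeq2 called 5 members here, adding Eif4a1, Eif1a and Eif2s3y to the eEF1A pair, beside 7.16% of all genes. Eif4ebp1 was at -0.10 ± 0.08 (adjusted p = 0.556). In all, 11 members had an unadjusted p under 0.05, which is 17.2% beside 18.5% of all genes.

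**Figure D4:**
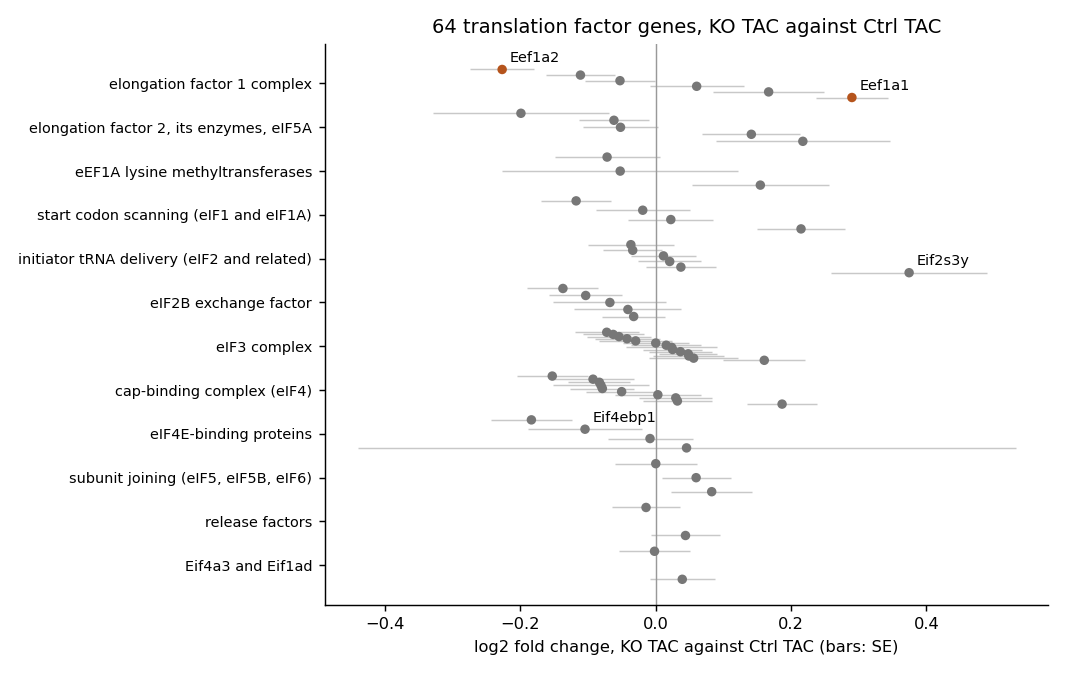
Log2 fold change of KO TAC against Ctrl TAC with its SE for the 64 genes, ordered by role (4 hearts a group). The 2 orange points, Eef1a1 at 0.29 and Eef1a2 at -0.23, passed an adjusted p of 0.05, and the wide bar belongs to Eif4ebp3, which has few reads.

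Tested gene by gene, the response to TAC was not called different between genotypes for any member, beside 0.0109% of all genes, although 5 members had an unadjusted p under 0.05. This is 7.81% of the members beside 11.1% of all genes. The lowest 3 were Eif2s3y (log2 difference of the changes 0.72 ± 0.16, adjusted p = 0.165), Eef1a1 (0.31 ± 0.08, adjusted p = 0.177) and Eef1a2 (-0.24 ± 0.07, adjusted p = 0.227). DESeq2 called these 3 genes, with adjusted p of 0.00812, 0.012 and 0.0278. The DESeq2 share over all genes for this comparison is not given here. Among Y-linked genes outside the set, Kdm5d and Uty moved in the direction of Eif2s3y in Ctrl hearts after TAC (log2 change -0.27 ± 0.07, adjusted p = 0.0133, and -0.25 ± 0.09, adjusted p = 0.0547) and Ddx3y was at -0.06. In KO hearts after TAC they were at -0.07, -0.04 and 0.03, and in KO sham against Ctrl sham at -0.18, -0.10 and 0.01, none called. The differences of the changes were 0.20 ± 0.10 for Kdm5d, 0.20 ± 0.12 for Uty and 0.09 ± 0.07 for Ddx3y, none called.

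Genes that act on these factors were read from lists, whose called shares stand beside the 20.0% of all genes called in Ctrl and the 34.3% called in KO hearts after TAC. Of 39 genes of the mTORC1 pathway, 2 were higher and 6 lower after TAC in Ctrl hearts and 4 higher and 11 lower in KO hearts (20.5% and 38.5%, with a median log2 change of -0.00 and -0.09). The growth factor kinase Akt2 fell by 0.38 ± 0.05 in Ctrl hearts (adjusted p = 5.85e-05), where the scaffold Lamtor1 rose by 0.17 ± 0.05 (adjusted p = 0.0236). In KO hearts the mTORC1 inhibitor Sesn1 fell by 0.56 ± 0.11 (adjusted p = 5.78e-04) and its relative Sesn2 rose by 0.40 ± 0.11 (adjusted p = 0.00806). None of the 39 was called between the TAC groups.

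Of 17 kinases and phosphatases of translation factors, 2 were higher in Ctrl, and 5 were higher and 1 lower in KO hearts after TAC (11.8% and 35.3%). Ppp1r15a, which restores eIF2 after stress, rose by 0.44 ± 0.11 in Ctrl hearts (adjusted p = 0.00758). Eif2ak2, the kinase of eIF2 that senses double-stranded RNA, rose by 0.60 ± 0.08 in KO hearts (adjusted p = 9.37e-06), and Rps6ka2 fell by 0.25 ± 0.07 there (adjusted p = 0.0102). Of 34 poly(A)-binding, cap, recycling and modifying factors, 2 rose and 1 fell in Ctrl and 5 rose and 4 fell in KO hearts (8.82% and 26.5%). Pabpc1, the main cytosolic poly(A)-binding protein, rose by 0.30 ± 0.05 (adjusted p = 1.24e-04) and by 0.42 ± 0.05 (adjusted p = 1.48e-06), and Cyfip2 fell by 0.40 ± 0.07 and by 0.43 ± 0.07 (adjusted p = 7.72e-04 and 1.64e-04).

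The mitochondrial counterparts moved down where they were called. Of 11 mitochondrial translation factors, 2 fell in Ctrl and 5 in KO hearts and none rose (18.2% and 45.5%), with medians of -0.05 and -0.15 on the log2 scale, and the largest falls were those of the release factor genes Mtrf1 (0.22 ± 0.07 in Ctrl, adjusted p = 0.0417) and Mtrf1l (0.28 ± 0.08 in KO hearts, adjusted p = 0.0105). Of 22 cytosolic aminoacyl-tRNA synthetases, 6 rose and 1 fell in Ctrl and 6 rose and 2 fell in KO hearts (31.8% and 36.4%). Yars rose by 0.28 ± 0.07 in Ctrl (adjusted p = 0.00575) and Aars by 0.26 ± 0.06 in KO hearts (adjusted p = 0.00429), while Kars fell by 0.18 ± 0.05 and by 0.27 ± 0.05 (adjusted p = 0.0148 and 3.6e-04). No gene of these 5 lists was called between sham hearts or between TAC hearts of the 2 genotypes.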

How the data were processed

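RNA from the apex of 16 mouse hearts was read as paired 150-base reads from poly(A)-selected libraries. Per the labels, the authors trimmed reads with cutadapt 2.3, checked them with FastQC, aligned them with HISAT2 2.1.0 to GRCm38 and used edgeR 3.26.1. The counting program, the annotation and the strand setting are not given in the sources used here, so reads of overlapping genes cannot be told apart. The deposited values are whole-number counts per Ensembl gene and library, with no normalization. They were analysed as deposited, with GENCODE M21 used for names and exon lengths (99.5% of identifiers matched).

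All 16 libraries entered a model with 1 mean per group (edgeR 4.0.16, filterByExpr, TMM, robust quasi-likelihood F-test, R 4.3.3), with Benjamini-Hochberg adjustment over the 18275 genes kept and calls at an adjusted p under 0.05. The SE of a log2 change is its size divided by the square root of F. Library totals of 53169437 to 79404714 counts set the precision of levels, and the 4 hearts per group set that of comparisons, each heart being a separate animal by its title. The Eef1a1 to Eef1a2 ratio was compared by an exact permutation test. RNA that shares 75-base stretches with another gene was counted over annotated transcripts.

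The members and the gene lists were chosen with earlier results of these data known. Genes are named by rule: Eef1a1, Eef1a2, Eif4ebp1, the other Eef1, Eef2 and Eif4ebp genes, up to 12 rises and 12 falls per comparison among called members, the 3 lowest p of the interaction, and the largest called rise and fall of each related list. Names outside that rule were chosen after their values were seen. The fit was tested on simulated counts. Alternatives covered size factors (RLE), mitochondrial genes, DESeq2 1.42.0, count filters, a threshold of 0.01, animal-number series, 8-library fits and each library left out. Smooth muscle, Schwann, mesothelial, erythroid, lymphocyte, adipocyte, atrial and skeletal muscle markers were also read.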

Additional observations from a re-analysis of the deposited data

Results flagged for a closer look

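The change of the Eef1a1 to Eef1a2 log2 ratio with TAC differed between the 2 genotypes by 0.56 (exact permutation p = 0.00735, 0.0367 adjusted over 5 comparisons). All 4 KO TAC hearts lay above all 4 Ctrl TAC hearts. That p is exact for no genotype difference in TAC or sham hearts, not for equal changes. Without Ctrl TAC 2 and KO TAC 4 the adjusted exact permutation p was 0.0714. Gene by gene, edgeR called the interaction for neither gene. Genotype and number series are partly confounded among the TAC hearts, and KO TAC 4 holds Cardinal at a Ctrl level.

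Of 140 groups of 4 hearts examined over 34 named genes and the eEF1A ratio, 11 held a heart whose gap to its nearest neighbour passed Dixon's 95% critical value as a share of the group's range, where about 1 in 20 groups does so by chance. Ctrl TAC 2 was the far heart for Eef1b2 (87.6 CPM against 107 to 111 in the others, 0.85 of the range), Eif2b4 (40.6 against 38.0 to 38.2, 0.922) and Eif4ebp2 (79.9 against 68.2 to 69.97, 0.852). Elsewhere among the Ctrl TAC hearts, Ctrl TAC 1 was low for Eif4a3 (40.2 against 43.6 to 43.8, 0.931) and Ctrl TAC 3 was low for Gspt1 (69.7 against 75.6 to 76.1, 0.922). Among the Ctrl sham hearts, Ctrl sham 3 was low for Eef1d (93.3 against 97.9 to 98.9, 0.831) and Eif4ebp1 (51.0 against 56.4 to 56.8, 0.927), Ctrl sham 4 was low for Eef2k (34.7 against 41.9 to 43.0, 0.867) and Ctrl sham 2 was low for Etf1 (89.5 against 99.2 to 101, 0.854). In the KO groups, KO sham 1 was high for Eif4g1 (418 against 396 to 399, 0.852) and KO TAC 2 was high for Eif6 (29.0 against 24.7 to 25.0, 0.948).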

How the results depend on the processing

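The counts of members called moved by over 1.5 times under several settings, whose shares over all genes are not given here. In Ctrl TAC against Ctrl sham the 19 became 9 at an adjusted p of 0.01, 9 with the number series as a term, 5 with only the 12 libraries of the larger series and 11 to 20 with 1 library left out (11 without Ctrl sham 1, 12 without Ctrl TAC 4). In KO TAC against Ctrl TAC the 2 became 5 with DESeq2, 0 at an adjusted p of 0.01, with the series as a term, in the 12 libraries, in the 8 libraries of these groups and without Ctrl TAC 2 and KO TAC 4, and 1 to 4 with 1 library left out (1 without Ctrl TAC 2 or without KO TAC 3, 4 without Ctrl TAC 4). For the interaction DESeq2 called 3 in place of 0. In KO TAC against KO sham the count ran from 14 to 25 over all alternatives. With the number series as a term all 21 calls in KO hearts were kept, whereas 12 of the 19 in Ctrl hearts were lost.

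The Eef1a1 to Eef1a2 balance kept its direction throughout. In the 12 libraries its differences were 0.64, 0.54 and 0.58 (KO TAC against KO sham, KO TAC against Ctrl TAC, interaction) and without Ctrl TAC 2 and KO TAC 4 they were 0.64, 0.42 and 0.46, past the adjusted threshold in none. Without these 2 libraries the exact permutation p of the interaction was 0.0257 over 1400 relabellings (0.0714 adjusted), against 0.00735 with all libraries. For KO TAC against Ctrl TAC the loss says nothing of stability, since the smallest possible exact p without them is 0.1. The 12 libraries hold only Ctrl TAC 1 of its group, so no threshold is read there for comparisons with it. The exact p of KO TAC against KO sham stayed at its smallest value of 0.0286, with only the adjustment over the other comparisons moving it. Eef1a1, at -0.02 in KO sham against Ctrl sham, ran from -0.045 to 0.0034 with 1 library left out, the positive value without Ctrl sham 3. Eif4ebp1, at -0.03 there, was at 0.021 with animal numbers starting with 33 as a term and ran from -0.11 to 0.049 with 1 library left out, the positive value without KO sham 3. Its interaction of -0.07 was 0.030 in the 12 libraries, 0.00679 without the pair of libraries and from -0.15 to 0.0033 with 1 library left out, the positive value without KO sham 4. None of these was called. No called member changed sign under any of the 24 alternatives, and 0 members were called between sham groups in every alternative. Why calls were lost was not tested, beyond fewer libraries where these were left out. Depth limits Eif4ebp3 alone, at under 1 CPM.

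No paired analysis was possible because the animal numbers in the titles are not shared between groups and the replicate numbers follow accession order.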
